A study of Mus musculus with 3 samples.

Results

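Isolated common regions are stretches of open chromatin that were listed in fat cells of all 3 mouse depots and had no other open region of any kind within 50 kb on either side. They were chosen by list membership and position: overlapping or touching hypersensitive sites of brown fat (BAT), inguinal white fat (iWAT) and epididymal white fat (eWAT) were joined to give 99297 regions, 25009 of these were held by all 3 lists, and 590 of the 25009 (2.36%, exact 95% interval 2.17 to 2.55) lay more than 50 kb from the next region. The other 24419 common regions serve as the comparison. Membership in the lists and distance are therefore not findings, and every value of the members is given as a description without a test.

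The study mapped DNase I hypersensitive sites, places where nuclear DNA is exposed to the cutting enzyme, in adipocytes grown in culture from male NMRI mice of 4 to 5 weeks. BAT was pooled from interscapular, cervical and axillary depots, iWAT lies under the skin and eWAT in the abdomen. All cultures shared the same history: the stromal-vascular cells, which include fat cell precursors, received 30 nM insulin, 10% newborn calf serum and 1 µM rosiglitazone, an activator of the fat cell regulator PPARγ, and were harvested on day 8 when more than 50% of the cells had differentiated. There was 1 library per depot and no undifferentiated or untreated library, so no difference between depots has a replicate check. Intervals cover counting error only, and neighbouring regions are not independent of each other. Purity of the cultures could not be checked from lists of sites, which hold no expression of marker genes.

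Open chromatin is uneven along mammalian chromosomes. Promoters and enhancers gather around active genes, and enhancers of strongly expressed cell identity genes often form dense groups, whereas gene-poor stretches hold few accessible sites. Accessible sites that stand alone can be distant enhancers, promoters of lone genes or sites bound by architectural proteins such as CTCF, which anchors chromatin loops. The regions are given by their mm9 positions as in the deposited lists, and no gene or sequence is assigned to them, since an mm9 annotation and an mm9 genome were not used here.

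The members were set beside isolated regions of the other classes as a description only, since list membership and distance are what the rule used. Of the 3271 isolated regions of all classes, 18.0% were held by 3 lists, 19.6% by 2 lists and 62.4% by 1 list. Among the 96026 regions with a neighbour within 50 kb, 25.4% were held by 3 lists, 23.4% by 2 and 51.1% by 1. With the top 50% of each list the shares held by 3 lists were 25.2% among isolated and 27.1% among the other regions. Put the other way, 2.36% of the regions held by all 3 lists were isolated, against 2.76% of those held by 2 lists and 3.99% of those held by 1. Among single-depot regions the isolated share was 3.86% in BAT, 3.52% in iWAT and 4.56% in eWAT.

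The members had long empty flanks. The median distance to the nearest region was 73.7 kb, the middle 50% lay between 58.6 and 103 kb, and 161 members (27.3%, 23.7 to 31.1) had no region within 100 kb. Beyond 200 kb there were 35 members, beyond 300 kb 12 and beyond 400 kb 5. For the 585 members with a region on both sides, the empty sequence on both flanks together had a median of 226 kb and a maximum of 3303 kb. The nearest region of a member was held by all 3 lists in 22.2% of cases (18.9 to 25.8) and by 1 list in 56.4% (52.3 to 60.5), against 28.6% (28.1 to 29.2) and 48.8% (48.2 to 49.4) for the other common regions.

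Coverage around the members was also thin when counted over 500 kb, a range that includes the 50 kb the rule required to be empty. Within 500 kb on either side a member had a median of 24 other regions, of which 6 were common, against 60 and 16 for the other common regions. The middle 50% of members had 13 to 40 regions in that range, and the middle 50% of the other common regions had 44 to 76. The 2 ranges did not overlap, although part of the gap follows from the empty 50 kb itself. Regions beyond 50 kb were not counted apart, so this is a description. At the far end, the member on chromosome 17 at 18659706 to 18659930 was the one with no other region within 500 kb.

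Most members had no other member next to them along the chromosome. Members were 590 of the 99297 regions, so this does not show that they avoid each other. The nearest region was itself a member for 35 of the 590 (5.93%, 4.17 to 8.15), a larger share than members make up of all regions. The rule chose members by their empty flanks, which bear on this share, so it is a description. Of the stretches of consecutive members, 530 consisted of 1 member, 24 of 2, and 1 each of 3, 4 and 5. The stretch of 5 ran from 17088132 to 17431298 on chromosome 17, so that 5 common regions followed one another at distances over 50 kb with no region of any class between them. This stretch was picked for its length after the values were seen. Its first member, at 17088132 to 17088423, held 28.3 normalized tags in BAT, 32.5 in iWAT and 19.0 in eWAT, and the member at 17371446 to 17371680 held 28.3, 43.3 and 22.6. In each list 3 or 4 of the 5 were above the 70th percentile of common regions, and the member at 17200641 to 17200965 was the lowest in BAT and iWAT with 12.8 and 20.7 normalized tags and held 11.3 in eWAT.

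Every chromosome held members, and the X chromosome stood above every autosome in their share. On the autosomes 551 of 24499 common regions were isolated (2.25%, 95% interval 2.07 to 2.44), with the lowest share on chromosome 19 (7 of 777, 0.901%, 0.363 to 1.85) and the highest on chromosome 17 (31 of 983, 3.15%, 2.15 to 4.45). On the X chromosome 36 of 473 common regions were isolated (7.61%, 5.39 to 10.4). The Y chromosome had 3 of 37 (8.11%), with an interval from 1.70 to 21.9 that covers the autosomal share. The X interval lay above that of every autosome.

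The higher share on the X chromosome went with fewer common regions, not with more isolated ones. The X chromosome held 2.95 common regions per Mb between its first and last region, where the autosomes held from 8.32 on chromosome 14 to 13.4 on chromosome 11. Members numbered 0.224 per Mb on the X chromosome, within the autosomal range of 0.120 on chromosome 19 to 0.336 on chromosome 17. The Y chromosome had 1.14 per Mb, over a listed span of only 2.64 Mb. Isolation was also more frequent for X regions of any class, at 10.8% (9.46 to 12.2) against 3.13% (3.03 to 3.25) on the autosomes. The mice were male and carry a single X chromosome per cell; its part in these counts was not tested.

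**Figure D1:**
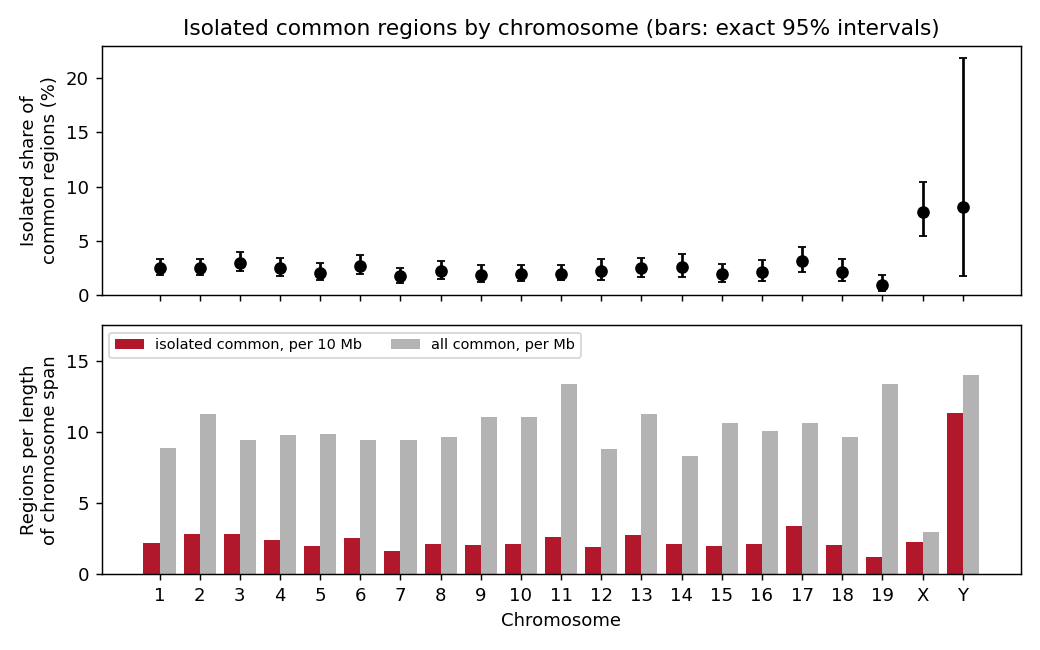
The upper panel plots, for each chromosome, the isolated share of common regions in percent with exact 95% intervals; the lower panel plots isolated common regions per 10 Mb (red) beside all common regions per Mb (grey). The X chromosome stands at 7.61% above the autosomes, with isolated regions at an autosomal density and few common regions.

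Isolated common regions held fewer tags than the other common regions in each depot. Strength was compared by rank within a list, as the percentile of the normalized tag count among all common regions, because the total to which each library was scaled is not stated. Percentiles of a list run from 0 for its weakest common region to 100 for its strongest. The median member stood at percentile 37.6 in BAT, 38.8 in iWAT and 34.9 in eWAT, against 52.0, 51.1 and 52.0 for the other common regions.

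In tags the gap was small. The median member held 12.8 normalized tags in BAT, 16.7 in iWAT and 10.7 in eWAT, against 15.4, 19.7 and 13.1 for the other common regions. Each normalized tag count is a multiple of the value of 1 tag, and these medians correspond to 15, 17 and 18 tags in members and to 18, 20 and 22 tags in the other common regions. The weakest members had 7 tags in BAT, 7 in iWAT and 9 in eWAT, close to the limit of what was listed at all, and the strongest had 274, 283 and 289.

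The shift ran through the whole distribution. In the top 25% of common regions by tag count were 100 members in BAT (16.9%, 95% interval 14.0 to 20.2; all common regions 25.1%), 89 in iWAT (15.1%, 12.3 to 18.2; 24.7%) and 96 in eWAT (16.3%, 13.4 to 19.5; 25.2%). In the lowest 25% were 190 members in BAT (32.2%, 28.4 to 36.1; 22.9%), 233 in iWAT (39.5%, 35.5 to 43.6; 27.4%) and 213 in eWAT (36.1%, 32.2 to 40.1; 22.9%). The background shares are not exactly 25% because many regions tie at the same number of tags. All 6 intervals leave out the background share.

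**Figure D2:**
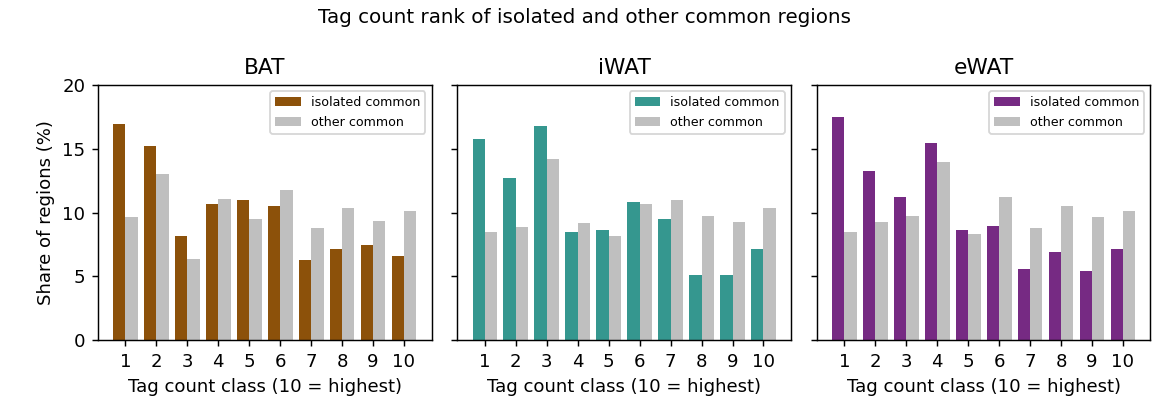
For each depot the bars give the share of isolated common regions (coloured) and of other common regions (grey) in each tag count class of 10 percentile points, from the weakest (1) to the strongest (10). The lowest class held 16.9%, 15.8% and 17.5% of the isolated regions in BAT, iWAT and eWAT, and the highest 6.61%, 7.12% and 7.12%; uneven grey bars come from ties.

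Members that were weak in every depot were more frequent than among common regions in general. In the lowest 25% of every list were 86 members (14.6%, 11.8 to 17.7), against 7.85% of all common regions. In the top 25% of every list were 54 (9.15%, 6.95 to 11.8; all common regions 14.7%), and in the top 10% of every list 23 (3.90%, 2.49 to 5.79; 5.24%). The last interval includes the background share. In the top 10% of a single list the counts were 39 in BAT (6.61%, 4.74 to 8.93; 10.1%), 42 in iWAT (7.12%, 5.18 to 9.50; 10.3%) and 42 in eWAT (7.12%, 5.18 to 9.50; 10.1%), each below the background with an interval that leaves it out.

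Strength fell with distance on both sides of the limit of 50 kb, but not evenly: the largest step between neighbouring classes was at 100 kb. Common regions with a neighbour within 1 kb had median percentiles of 52.0 in BAT, 54.7 in iWAT and 52.0 in eWAT. At 10 to 25 kb from the nearest region the medians were still 47.6, 47.3 and 48.0. Those 25 to 50 kb from the nearest region had 42.9, 43.2 and 39.5, those 50 to 100 kb away had 42.9, 38.8 and 39.5, and those beyond 100 kb had 32.1, 29.6 and 25.3. The 161 members beyond 100 kb thus were the weakest group of common regions in every list, with medians of 14, 15 and 16 tags.

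**Figure D3:**
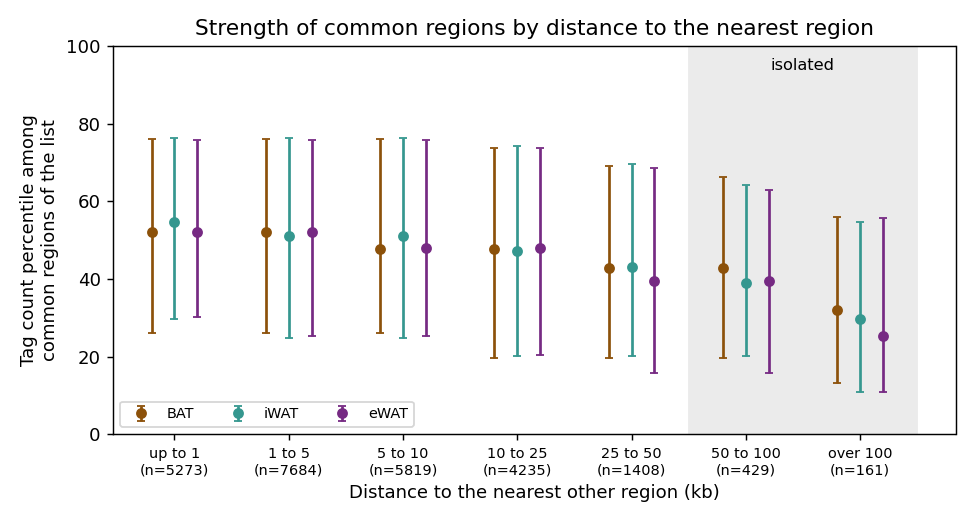
Points give the median tag count percentile of common regions in each class of distance to the nearest other region, with bars for the middle 50%, in BAT, iWAT and eWAT; n is the number of common regions and the grey area holds the isolated ones. Medians lie between 52.0 and 54.7 within 1 kb and between 25.3 and 32.1 beyond 100 kb.

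The regions closest to the limit of 50 kb were mixed in strength. Just inside, at 50001 bp from the nearest region, the member from 85335882 to 85336173 on chromosome 15 had 30.0, 28.6 and 13.1 normalized tags in BAT, iWAT and eWAT. The next inside, from 99857625 to 99857949 on chromosome 12, had 6.85, 13.8 and 10.1, and was followed by the chromosome 17 member at 17088132 described above. Just outside, at 49949 bp, the region from 81180978 to 81181235 on chromosome 18 had 14.6, 15.8 and 15.5. The next outside were those from 93395339 to 93395617 on chromosome 6, with 32.5, 27.6 and 17.2, and from 49898034 to 49898306 on chromosome 7, with 10.3, 12.8 and 7.73. Weak and strong regions occurred on both sides.

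Lower strength of isolated regions was found in regions of fewer depots as well. Ranked among all regions of a list, members had median percentiles of 52.9 in BAT, 63.1 in iWAT and 59.7 in eWAT, against 66.0, 72.6 and 73.1 for common regions with a neighbour. Isolated regions held by 1 list had 12.5 in BAT, 10.3 in iWAT and 11.8 in eWAT, against 32.6, 29.0 and 30.4 for single-depot regions with a neighbour. Members thus ranked above isolated regions of 1 depot and below other common ones. The higher rank over regions of 1 depot is not a finding, since the rule used list membership. Common regions with a neighbour likewise ranked above single-depot regions with a neighbour.

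The direction was seen on most chromosomes. Leaving out the Y chromosome with its 3 members, the median percentile of members was lower than that of the other common regions of the same chromosome on 17 of 20 chromosomes in BAT, 18 of 20 in iWAT and 20 of 20 in eWAT. On the X chromosome members had median percentiles of 40.2 in BAT, 34.3 in iWAT and 27.8 in eWAT, against 42.9, 38.8 and 34.9 for the other X common regions. The 3 members on the Y chromosome were strong, all at or above percentile 83.9 in each list.

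A few members were among the strongest sites of all lists. The member with the highest mean percentile lay on chromosome 12 at 3109929 to 3110154, 111 kb from the next region. It held 234.7 normalized tags in BAT, 278.8 in iWAT and 160.6 in eWAT, at percentiles of 99.96, 99.97 and 99.95, and it rose 113, 119 and 73.6 times above the tag density around it. The second, on chromosome 4 from 3017345 to 3017567, had 227, 263 and 171.9 normalized tags, but stood only 12.5, 14.7 and 12.4 times above its surroundings. The next ones lay inside chromosomes, on chromosome 3 from 56379367 to 56379593 (207.3, 226.6 and 158.8 normalized tags) and on chromosome 13 from 77578067 to 77578398 (156.7, 188.2 and 120.7). In these 4 members the depots thus ranked alike, differing by at most 0.012 percentile points.

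Several of the strongest members stood at the ends of what the lists cover. Besides those on chromosomes 12 and 4, the fifth was the last region of the Y chromosome, from 2876241 to 2876742. It had 116.5, 102.5 and 104.7 normalized tags and tag densities of 4.63, 5.18 and 4.93 times the surroundings. The sixth, on chromosome 18 from 3005734 to 3005961, had 82.2, 57.1 and 61.3 normalized tags and 10.9, 7.43 and 9.23 times the surroundings. In all, 11 members (1.86%, 0.934 to 3.31) lay within 1 Mb of the first or last region of their chromosome, against 1.99% (1.82 to 2.18) of the other common regions. Members that were themselves the first or last numbered 5 (0.847%, 0.276 to 1.97), against 12 of the 24419 other common regions (0.0491%, 0.0254 to 0.0858). A region at an end has no listed neighbour on that side by construction, and which parts of the genome reads can be placed on was not analysed here.

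The remaining members of the top 10 were ordinary in position. The seventh, on chromosome X from 73844297 to 73844528, had 62.5, 59.1 and 60.7 normalized tags in BAT, iWAT and eWAT. The eighth, on chromosome 11 at 32768884 to 32769148, held 69.4, 74.9 and 32.1. The ninth, on chromosome 6 at 60637138 to 60637366, held 46.3, 69.0 and 38.7, and stood 48.4, 106 and 54.5 times above its surroundings. The last of the 10, on chromosome 13 at 85266714 to 85267099, held 66.8, 55.2 and 34.5. These 4 stood at least 20.3 times above their surroundings in every list.

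At the weak end, members held a handful of tags in each library. The lowest mean percentile belonged to chromosome 14 at 86456762 to 86457097 and to chromosome 4 at 78211217 to 78211623, each with 8.57 normalized tags in BAT, 8.87 in iWAT and 5.95 in eWAT, which is 10, 9 and 10 tags. Next came chromosome X at 60272942 to 60273262 with 10, 8 and 11 tags, chromosome 8 at 55745919 to 55746446 with 9, 9 and 12, and chromosome 1 at 47866413 to 47866703 with 10, 9 and 11. A count of 10 tags has an exact Poisson 95% interval of 4.80 to 18.4, so these regions cannot be ranked among each other. That each was listed in all 3 libraries follows from the rule that chose the members.

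The members farthest from any region included weak and strong ones. The member on chromosome 17 at 18659706 to 18659930, 612 kb from its nearest region, held 11.1, 8.87 and 8.33 normalized tags in BAT, iWAT and eWAT (13, 9 and 14 tags). Its focus ratios, a deposited fraction described below, were high at 0.875, 0.923 and 0.882, and the site centres of the 3 lists lay within 2 bp. The member on chromosome X at 85421805 to 85422058, at 473 kb, held 8.57, 10.8 and 5.95. The member on chromosome 10 at 113548811 to 113549098, at 453 kb, was the strongest of the 10 farthest, with 29.1, 28.6 and 18.4 normalized tags and percentiles of 87.7, 76.3 and 77.8.

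The other farthest members were mostly weak. Those on chromosome X at 123299878 to 123300307, chromosome 7 at 110360515 to 110360821, chromosome 17 at 57997439 to 57997743 and chromosome X at 84483618 to 84483848 held from 8.57 to 14.6 normalized tags in BAT, 8.87 to 12.8 in iWAT and 6.54 to 8.92 in eWAT. The member on chromosome 3 at 47491890 to 47492176 held 12.0, 11.8 and 10.7. The member on chromosome 6 at 62862628 to 62862936 was higher, with 22.3, 23.6 and 11.9. The X region at 60272942, already described as weak in every list, was among the 10 as well. Of the 10 farthest, 4 lay on the X chromosome, which held 36 of the 590 members (6.10%). The 10 were picked by distance, which the rule used, so this is a description.

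The focus ratio, a fraction between 0 and 1 deposited for each site, was slightly higher in members. It is not read here as a measure of width. It was not used by the rule. The median was 0.724 in BAT, 0.724 in iWAT and 0.703 in eWAT for members, against 0.706, 0.704 and 0.688 for the other common regions. The middle 50% overlapped widely, at 0.667 to 0.786 against 0.650 to 0.765 in BAT. Above the median of the other common regions were 339 of 590 members in BAT (57.5%, 95% interval 53.4 to 61.5; all common regions 49.9%), 342 in iWAT (58.0%, 53.9 to 62.0; 50.1%) and 334 in eWAT (56.6%, 52.5 to 60.7; 49.4%). A higher focus ratio of isolated regions was not particular to common ones. Isolated regions held by 1 list had medians of 0.75 in BAT, 0.75 in iWAT and 0.733 in eWAT. Single-depot regions with a neighbour had 0.706, 0.706 and 0.696. Among regions held by 2 lists, the isolated ones likewise had the higher median in each list.

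The difference in focus ratio between members and other common regions was about as large at like tag count. Set against the other common regions of the same tag count class of 10 percentile points, 58.0% of members (53.9 to 62.0) were above the median in BAT, 59.5% (55.4 to 63.5) in iWAT and 57.5% (53.4 to 61.5) in eWAT. The median of members was the higher one in 9 of 10 classes in BAT, 10 of 10 in iWAT and 9 of 10 in eWAT. In the lowest class the medians were 0.706 against 0.688 in BAT, 0.692 against 0.688 in iWAT and 0.667 against 0.667 in eWAT. In class 6 of BAT both medians were 0.714, and 43.5% of members (31.0 to 56.7) were above the median of the others. On the X chromosome the median of the 36 members was 0.689 in BAT, 0.714 in iWAT and 0.690 in eWAT, against 0.717, 0.714 and 0.694 for the other X common regions, so the direction did not hold there. By chromosome, without Y, members had the higher median on 15 of 20 in BAT, 16 of 20 in iWAT and 15 of 20 in eWAT.

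**Figure D4:**
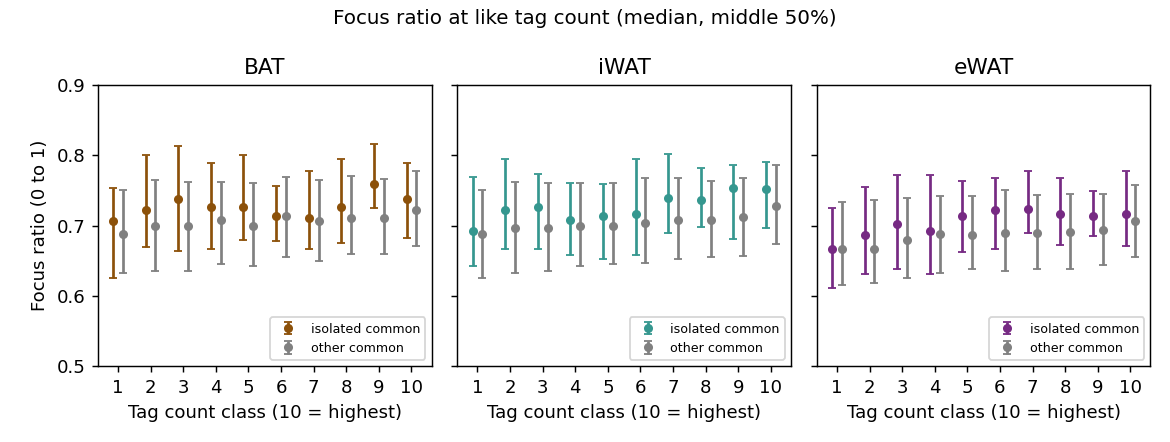
For each depot, points give the median focus ratio of isolated common regions (coloured) and other common regions (grey) in each tag count class of 10 percentile points, with bars for the middle 50%; the axis starts at 0.5. The coloured medians lie above the grey ones in 9, 10 and 9 of 10 classes in BAT, iWAT and eWAT, by less than the spread between regions.

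A small set of members had a high focus ratio in every depot. In the top 10% of common regions by focus ratio in all 3 lists were 17 members (2.88%, 1.69 to 4.57), against 1.39% of all common regions. Their site centres lay a median of 11 bp apart across the 3 lists, and 8 of the 17 (47.1%, 23.0 to 72.2) had all centres within 10 bp. For the other 573 members the median was 78 bp, and 30 had all centres within 10 bp. Among the 330 other common regions in the top 10% by focus ratio in all 3 lists, the median offset was 43 bp. Of these, 55 (16.7%, 12.8 to 21.1) had all centres within 10 bp, against 3.60% of the remaining other common regions. Close centres thus went with a high focus ratio outside the members as well. Over all members, 38 (6.44%, 4.60 to 8.73) had their centres within 10 bp, against 3.84% of all common regions, while the median offset of 75.5 bp was close to the 73.0 bp of the other common regions.

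The member with the highest mean focus ratio lay on chromosome 8 at 101406344 to 101406570, with 0.986 in BAT, 0.973 in iWAT and 0.964 in eWAT. It was also strong, with 59.1, 56.2 and 30.3 normalized tags and percentiles of 99.2, 97.3 and 95.8. The next, on chromosome 2 at 90235209 to 90235434, had 0.966, 0.957 and 0.963 at a middling 16.3, 17.7 and 14.3 normalized tags, and its tag density in eWAT was 178 times that of the surroundings, against 55.5 in BAT and 56.6 in iWAT. Then came chromosome 6 at 43293669 to 43293892 with 0.967, 0.938 and 0.914. The centres of these 3 lay within 4, 3 and 2 bp.

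Members with the lowest focus ratios included some of the strongest. The lowest mean focus ratio was that of the Y region at 2876241 to 2876742, with 0.497, 0.567 and 0.582 in BAT, iWAT and eWAT, followed by chromosome 9 at 94752226 to 94752529 with 0.571, 0.524 and 0.575. Next was the region near the start of chromosome 4, at 3017345 to 3017567, with 0.564, 0.579 and 0.566. The Y and chromosome 4 regions are also among the 5 strongest members by tag count. Both combine many tags with a low focus ratio. The Y region stood 4.63, 5.18 and 4.93 times above its surroundings in BAT, iWAT and eWAT. The chromosome 4 region stood 12.5, 14.7 and 12.4 times above, near the member medians of 13.5, 16.5 and 11.1.

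Members stood higher over their surroundings than the other common regions, a measure that neighbours can lower. The median fold of tag density over the surroundings was 13.5 in BAT, 16.5 in iWAT and 11.1 in eWAT, against 10.4, 11.6 and 8.53. Above the median of the other common regions were 432 members in BAT (73.2%; all common regions 50.3%), 472 in iWAT (80.0%; 50.6%) and 438 in eWAT (74.2%; 50.5%). Over all common regions the median fold was 8.86, 9.39 and 7.29 at 1 to 5 kb from the nearest region, 12.3, 14.1 and 9.93 at 5 to 10 kb, and 13.8, 16.5 and 11.5 at 50 to 100 kb. Beyond 100 kb it was 12.6, 16.7 and 10.3, below the preceding class in BAT and eWAT. The step between the classes below and above 5 kb was thus larger than any change beyond 50 kb.

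The share of members that changed rank between depots was close to that of common regions in general. Between BAT and iWAT, 128 members differed by 30 percentile points or more (21.7%, 95% interval 18.4 to 25.2; all common regions 19.3%), between BAT and eWAT 135 (22.9%, 19.5 to 26.5; 19.9%) and between iWAT and eWAT 104 (17.6%, 14.6 to 20.9; 15.7%). All 3 intervals include the background share. For BAT and eWAT this depended on the size of the difference: at 20 points 232 members differed (39.3%, 35.4 to 43.4; 35.3%) and at 40 points 78 (13.2%, 10.6 to 16.2; 10.3%), and both intervals just leave out the background. For BAT and iWAT 63 members differed by 40 points (10.7%, 8.30 to 13.5; 9.14%), and for iWAT and eWAT 57 (9.66%, 7.40 to 12.3; 7.45%), with the background inside both intervals. By direction, BAT stood 30 points or more above iWAT in 70 members (11.9%; 9.69%) and below in 58 (9.83%; 9.58%), and iWAT stood above eWAT in 62 (10.5%; 8.29%) and below in 42 (7.12%; 7.45%). BAT stood above eWAT in 82 members (13.9%, 11.2 to 17.0; 10.1%) and below in 53 (8.98%, 6.80 to 11.6; 9.86%), and the interval of the 82 leaves out the background share.

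Ranks were somewhat less alike between depots among members. Over the 589 members with exactly 1 site per list, Spearman's rho of the tag counts across regions was 0.61 for BAT and iWAT, 0.56 for BAT and eWAT and 0.64 for iWAT and eWAT. Over 24399 other common regions it was 0.69, 0.66 and 0.73. Regions are not replicates, the values of one library share its depth, and members hold fewer tags, so these are descriptions. At the strength of the members, taken in classes of 10 percentile points, 19.7%, 20.2% and 16.1% of the other common regions differed by 30 points, against the 21.7%, 22.9% and 17.6% of members.

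**Figure D5:**
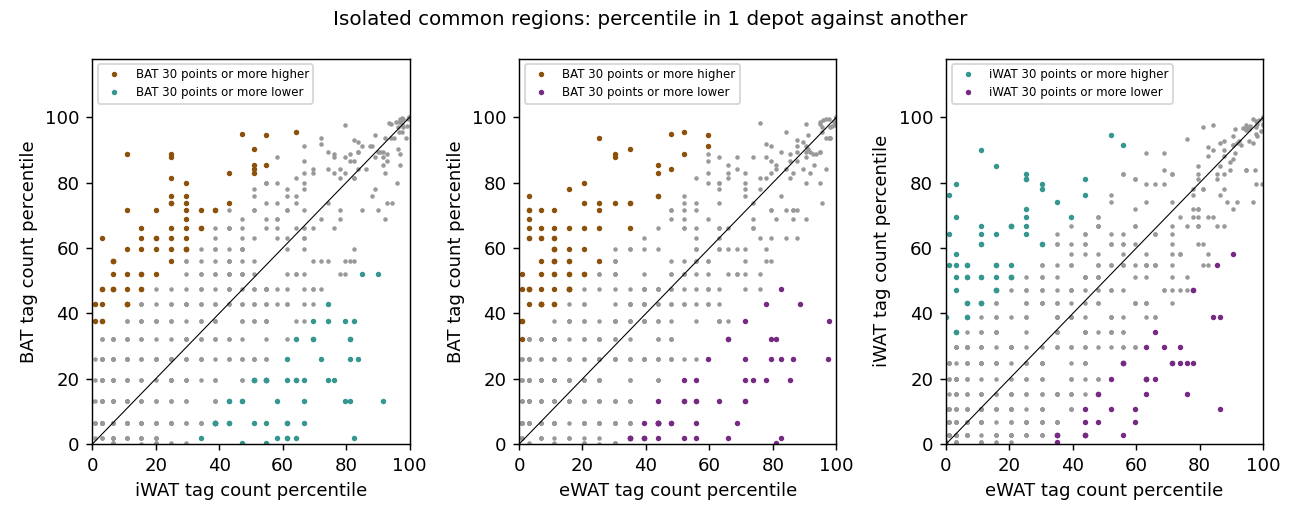
Each point is 1 of 590 isolated common regions, placed by its tag count percentile in 1 depot (vertical) and another (horizontal); coloured points differ by 30 points or more and the line marks equal percentiles. Points form a grid at low values, where regions with the same number of tags coincide; 128, 135 and 104 members are coloured in the 3 panels.

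The members that differed most between depots were ranked high in 1 list and low in another. These were picked for the size of the difference, so their values are descriptions. Highest in BAT against iWAT was chromosome 4 at 77164960 to 77165281, with 30.0 normalized tags in BAT, 10.8 in iWAT and 14.3 in eWAT. It stood at percentile 88.7 in BAT, 10.9 in iWAT and 59.5 in eWAT. The next were chromosome 13 at 102003343 to 102003831, with percentiles of 88.7, 24.9 and 30.2, and chromosome 8 at 89491753 to 89492232, with 87.7, 24.9 and 30.2, so that both were higher in BAT than in either white depot.

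Differences of like size ran the other way. On chromosome 3 at 44293857 to 44294190 BAT had 7.71 normalized tags, iWAT 32.5 and eWAT 13.7, at percentiles of 1.91, 82.7 and 55.8. On chromosome 15, from 68625952 to 68626193, they were 13.1, 91.5 and 55.8. In tags of each library the chromosome 15 member had 11 in BAT (exact 95% interval 5.49 to 19.7), 42 in iWAT (30.3 to 56.8) and 23 in eWAT (14.6 to 34.5). On chromosome 14 at 121922195 to 121922482 the normalized tags were 9.42, 31.5 and 9.52, so that iWAT alone was high.

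Against eWAT, BAT was highest on chromosome 4 at 104156465 to 104156733, with 22.3 normalized tags in BAT, 19.7 in iWAT and 6.54 in eWAT. The percentiles there were 76.0, 51.1 and 3.28. On chromosome 3 at 134426718 to 134426946 they were 71.6, 29.6 and 3.28, and on chromosome X at 148373587 to 148373903 they were 71.6, 20.1 and 3.28. All 3 had 11 tags in eWAT, near the lowest that was listed.

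BAT was lowest against eWAT on chromosome 13 at 11192973 to 11193363, with 6.85 normalized tags in BAT, 20.7 in iWAT and 19.6 in eWAT, and percentiles of 0.232, 54.7 and 81.1. This member lay 251 kb from any other region. On chromosome 17 at 12040388 to 12040677 the percentiles were 1.91, 58.2 and 82.6, and at 76462136 to 76462438 on the same chromosome 26.1, 83.9 and 97.3. In these 3 members both white depots ranked above BAT.

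Between the white depots, iWAT was highest against eWAT on chromosome 15 at 17191194 to 17191453, with 15.4 normalized tags in BAT, 39.4 in iWAT and 7.73 in eWAT. On chromosome 13 at 83480735 to 83480973 the values were 9.42, 30.5 and 6.54, and on chromosome 3 at 49289301 to 49289663 they were 10.3, 28.6 and 5.95. Both of these were low in BAT as well. iWAT was lowest against eWAT on chromosome 9 from 120739823 to 120740087, where BAT had 11.1 normalized tags, iWAT 10.8 and eWAT 22.0, at percentiles of 26.1, 10.9 and 86.5. Next was chromosome 1 at 23003749 to 23003995 with 14.6, 11.8 and 17.8, at percentiles of 47.6, 15.4 and 75.8. Then came chromosome 1 at 22258973 to 22259273 with 13.7, 13.8 and 18.4, at percentiles of 42.9, 24.9 and 77.8.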

How the data were processed

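One DNase-seq library per depot was measured. The authors deposited 1 list of sites per library, and STAR, HOMER and mm9 are named in the submitters' processing notes, with no version or setting. Per the file headers each site has a normalized tag count (a signal scaled to a total not stated), a focus ratio (a fraction), a score, a fold (ratio) and p-value against its surroundings, and a clonal fold. Each deposited list held sites at least 4 times above their surroundings. The lists held 48308 sites in BAT, 63214 in iWAT and 60974 in eWAT, with medians of 14, 14 and 16 tags per site. The value of 1 tag was found as the step of which at least 99.9% of normalized tag counts are whole multiples (tolerance 0.05, or 0.005 below 10): 0.857, 0.985 and 0.595.

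Sites that overlapped or touched were merged, and distances run from edge to edge; a chromosome end counted as no neighbour. A region with several sites of 1 list took the highest. Percentiles use mean ranks for ties. Shares carry exact Clopper-Pearson 95% intervals, and no test was made, as there was 1 library per depot. The members and comparisons were chosen with earlier results of these data known. Regions are named by rank of mean percentile, distance, depot difference and focus ratio, plus those beside the limit. Merging and isolation were tested on simulated lists. Motifs, base composition and genes were not analysed here. Alternatives for distance, merging, list length, threshold, overlap, neighbours, chromosomes and comparison set are given in the closing section. Python 3.11.15, numpy 2.4.6, pandas 2.3.3, scipy 1.17.1 and matplotlib 3.10.9 were used.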

Additional observations from a re-analysis of the deposited data

How the results depend on the processing

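The lower tag count and the higher focus ratio of the isolated common regions kept their direction under every alternative run. Of 101 recomputed values, 74 stayed within the interval (or, for counts, within 1.5 times) of the reported one and 27 moved. With a limit of 25 kb there were 1998 isolated common regions and all-depot regions made up 23.1% of isolated ones (25.4% of the others); 19.1% were in the iWAT top 25%, 53.4% had a BAT focus ratio above the median, and 394, 438 and 347 differed by 30 points for BAT and iWAT, BAT and eWAT, and iWAT and eWAT. The larger numbers follow from the larger set: the shares were 19.7%, 21.9% (20.1 to 23.8) and 17.4%, against 19.3%, 19.9% and 15.7% of all common regions. With 100 kb there were 161, all-depot regions made up 13.9% (25.3% of the others), and 9.94% were in the iWAT top 25%; the intervals of the focus share then included 50% in BAT (49.7 to 65.5) and eWAT (47.9 to 63.7). Merging sites within 200 bp gave 20.9% held by all lists (35.2% of the others). Lists of equal length gave 21.8% (27.0%), and 18.6% in the iWAT top 25%. The top 50% of each list gave 990 isolated common regions, 25.2% held by all lists (interval 23.8 to 26.6) against 27.1% of the others, so that most of the contrast in class was gone, and 22.0%, 20.4% and 20.6% in the top 25% of BAT, iWAT and eWAT. With only regions of 2 or more lists as neighbours there were 1962, and the focus shares were 53.2% in BAT and 53.6% in iWAT. A difference of 20 points gave 215, 232 and 198 members (36.4%, 39.3% and 33.6%; all common regions 34.7%, 35.3% and 30.4%), and 40 points gave 63, 78 and 57 (10.7%, 13.2% and 9.66%; 9.14%, 10.3% and 7.45%). The settings without chromosome ends and with regions of the same tag count were added after seeing the data. No paired analysis was possible because each depot had 1 library. With 15 to 18 tags in the median member, counting error limits any rank of a single region, and absence of a listed neighbour does not show closed chromatin.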
